A study of Mus musculus with 19 samples.

Results

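The genes described here encode the subunits of the mitochondrial respiratory chain and of ATP synthase that are made from nuclear DNA. They were taken by gene symbol, whatever their values: the Nduf genes of complex I, Sdha to Sdhd of complex II, the Uqcr genes and Cyc1 of complex III, Cycs for cytochrome c, the Cox4 to Cox8 families of complex IV, and the Atp5 genes. Symbols of pseudogenes, and array rows that carried several symbols, were left out. Of 22180 genes with a row of their own, 80 were such genes: 33 of complex I, 4 of complex II, 8 of complex III, 1 for cytochrome c, 17 of complex IV and 17 of ATP synthase. Complexes were assigned by name, so Ndufa4 and its paralog Ndufa4l2 stand under complex I, although the Ndufa4 protein is known to bind complex IV.

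The respiratory chain passes electrons from NADH (complex I) and succinate (complex II) through complex III and the small carrier cytochrome c to oxygen at complex IV, and pumps protons across the inner mitochondrial membrane. ATP synthase lets the protons back to make ATP. In brown fat, the uncoupling protein UCP1 offers another way back and turns the gradient into heat, so this tissue is rich in respiratory chain and comparatively poor in ATP synthase. Mitochondrial DNA encodes the remaining subunits, and the nuclear subunits must be made, imported and assembled with them. Several complex IV subunits exist as isoforms, with a widely used one (Cox7a2, Cox8a, Cox6a1) beside one typical of muscle (Cox6a2) or of muscle and brown fat (Cox7a1, Cox8b).

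The series removed Med1, part of Mediator, the bridge between bound transcription factors and the polymerase, in 3 experiments on 19 arrays. Embryonic interscapular brown fat at E17.5 carried Myf5-Cre, active in shared precursors of muscle and brown fat, with 1 floxed and 1 wild-type Med1 allele (Myf5CreMed1f/w, 3 control arrays) or with both floxed (Myf5CreMed1f/f, 4 knockout arrays), so the controls are heterozygous. Adult interscapular brown fat at 10 weeks was floxed at both alleles, without Cre (Med1f/f, 2 control arrays) or with Adipoq-Cre, active in fat cells (AdipoqCreMed1f/f, 2 knockout arrays), so Cre itself differs between these groups too. Cultured 3T3-L1 cells, a mouse fibroblast line that becomes fat cells after hormones, were the wild-type parent line or MED1-KO cells made with CRISPR/Cas9, with 2 arrays each on day 0 and day 2. The knockout cell arrays hold RNA pooled from individual clones, so cloning and MED1 loss cannot be told apart.

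All values are log2 array signals, and a difference of 1 is a factor of 2 (the log2 base). The median of the whole table was 4.69 to 4.79 on arrays of cells, 3.49 to 3.57 on those of embryos and 2.87 to 2.89 on those of adults, so the experiments look normalized separately and no level is compared across them or between genes. Med1 lay lower in knockout cells (log2 fold change -1.31 ± 0.08, SE; limma adjusted p = 0.0011). It was 5.99 and 6.90 in adult controls against 5.28 and 5.13 in adult knockouts (-1.24 ± 0.31, adjusted p = 0.19). In the embryo the groups overlapped, at 6.94, 7.33 and 7.82 in controls against 7.0, 7.10, 7.10 and 6.88 in knockouts (-0.35 ± 0.19, adjusted p = 0.37). The Med1 row can read probes outside the deleted part, and it does not by itself check the embryonic labels. Ucp1 read 10.07 to 11.59 in embryonic controls and 12.09 to 12.50 in adult controls, above their table medians, and 3.83 to 4.31 in the cells, under their table median.

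In embryonic brown fat, most genes of the respiratory chain lay lower in the Myf5-Cre knockout. Of the 80, 72 had a negative log2 fold change, against 53.8% of all genes, and their median was -0.42, which is 74.8% of the control signal, against -0.01 over all genes. By limma with Benjamini-Hochberg adjustment over all genes, 2 fell, Ndufs1 and Uqcrc2, and 0 rose, where 0.5% of all genes were called lower and 0.658% higher. On 51 of the 80 every knockout array lay under every control array (6.83% of all genes), and on Cox6a2 and Cox4i2 every knockout array lay above (8.56%). At an unadjusted p under 0.05, 64 were lower and 2 higher, against 9.13% and 10.9% of all genes. In whole tissue, fewer brown fat cells and less RNA per cell cannot be told apart.

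**Figure D1:**
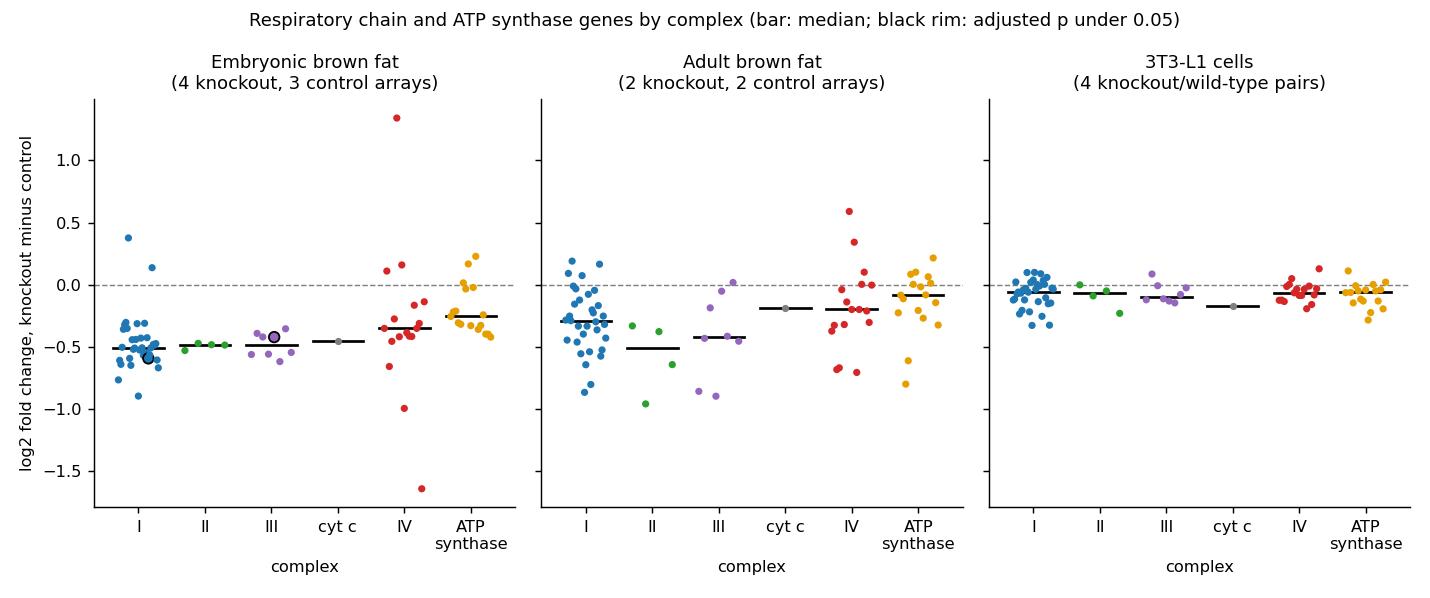
Log2 fold change (knockout minus control) of each gene, by complex, in embryonic brown fat, adult brown fat and 3T3-L1 cells; each point is a gene, the bar is the median of the complex and a black rim marks an adjusted p under 0.05. Complexes I, II and III center near -0.5 in the embryo and between -0.29 and -0.51 in the adult, ATP synthase lies closer to 0, and the cells stay within -0.33 to 0.13.

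The complexes were not lower to the same extent, though no test was made between them. Complex I had a median of -0.51, with 31 of 33 genes negative and 28 lower without overlap. Complex II (median -0.48, 4 of 4 negative) and complex III (median -0.48, 8 of 8 negative) were similar. Complex IV had a median of -0.35 and by far the widest range, from -1.64 to 1.34. ATP synthase had a median of -0.25, with 4 of 17 genes lower without overlap. The share of all genes lower without overlap was 6.83%.

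Single arrays show the same contrast between these complexes. The mean over complex I was 8.73, 8.71 and 8.91 in the controls against 8.49, 8.36, 8.27 and 8.16 in the knockouts. The mean over ATP synthase was 8.83, 8.87 and 8.95 against 8.83, 8.67, 8.68 and 8.54, so that knockout 1 reached the lowest control. Knockout 4 was the lowest array for both.

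**Figure D2:**
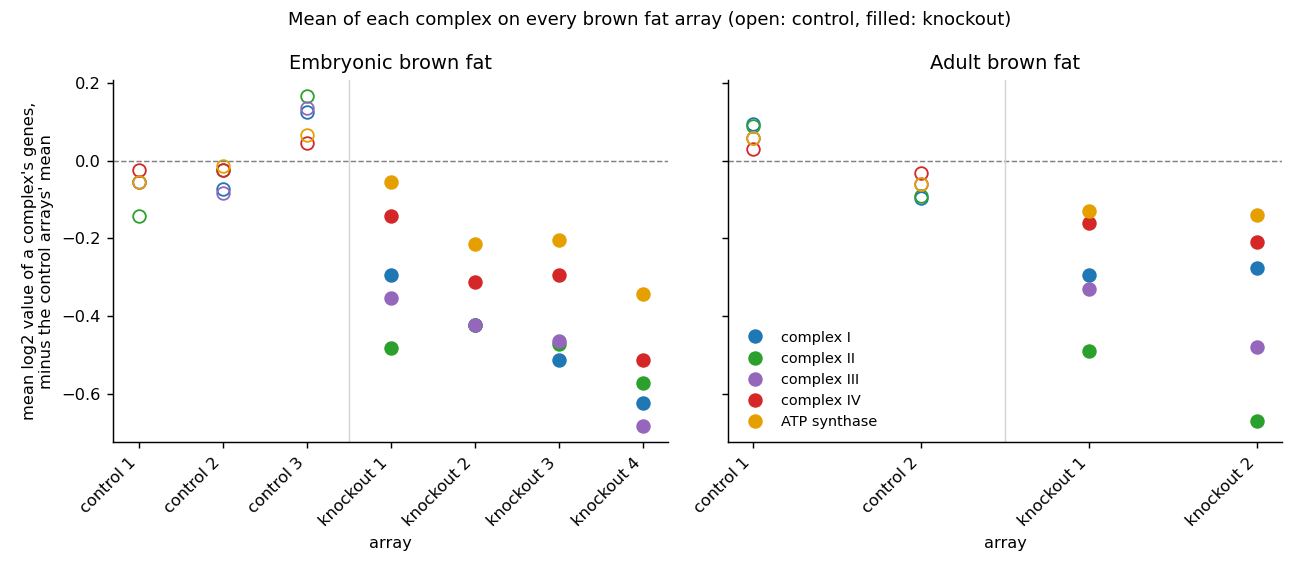
Mean log2 value over the genes of a complex on each brown fat array, minus the mean of that experiment's control arrays; open points are controls, filled points knockouts, colors the complexes. In both experiments complexes I, II and III lie below every control array in every knockout array, with ATP synthase nearest to 0.

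Complex I, the entry for electrons from NADH, held the clearest single gene. Ndufs1, the largest iron-sulfur subunit of its matrix arm, read 10.03, 10.03 and 10.26 in controls and 9.48, 9.50, 9.59 and 9.51 in knockouts. It fell by 0.59 ± 0.07 on the log2 scale (SE; adjusted p = 0.044), with no overlap and little spread among the knockouts. Leaving out any of the 7 arrays ended this call and that of Uqcrc2, with adjusted p values of 0.051 to 0.12 for Ndufs1 and 0.056 to 0.14 for Uqcrc2, and no gene of the whole table was then called. The 6 measured core subunits, most of which carry flavin or iron-sulfur clusters, all lay lower without overlap (6.83% of all genes), at -0.60 to -0.47. The flavin-binding Ndufv1 read 9.07, 9.55 and 9.60 against 9.02, 9.02, 9.01 and 8.68 (-0.47 ± 0.15, adjusted p = 0.15).

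The accessory subunits, which surround and stabilize the core, had a median of -0.51 over 27 genes. The lowest was Ndufb3, a small subunit of the membrane arm, at 7.50, 6.96 and 7.55 in controls against 6.65, 6.47, 6.39 and 6.27 in knockouts (-0.89 ± 0.16, adjusted p = 0.055). Ndufa4 lay at -0.35 ± 0.08 (adjusted p = 0.076). Its paralog Ndufa4l2, known to be induced by low oxygen, went the other way: 6.64, 6.39 and 6.19 in controls against 7.01, 6.72, 6.78 and 6.63 in knockouts, with overlap (0.38 ± 0.13, adjusted p = 0.17).

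Complex II, which is also an enzyme of the citric acid cycle, was even among its 4 genes. The flavoprotein Sdha lay at -0.53 ± 0.18, the iron-sulfur protein Sdhb at -0.47 ± 0.11, and the membrane anchors Sdhc and Sdhd at -0.48 ± 0.08 and -0.48 ± 0.09. None passed (adjusted p 0.16, 0.076, 0.053 and 0.057), and Sdha was the one whose arrays overlapped, at 10.76, 11.22 and 11.39 against 10.27, 10.71, 10.76 and 10.65.

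Complex III hands electrons from ubiquinol to cytochrome c. Its core protein Uqcrc2 read 11.36, 11.34 and 11.46 in controls and 11.09, 10.99, 10.92 and 10.88 in knockouts. This is a small difference on tight arrays: Uqcrc2 fell by 0.42 ± 0.07 on the log2 scale (adjusted p = 0.047). The other core protein Uqcrc1 lay at -0.56 ± 0.14 (adjusted p = 0.086), the Rieske iron-sulfur protein Uqcrfs1 at -0.62 ± 0.11 (adjusted p = 0.055) and cytochrome c1, Cyc1, at -0.56 ± 0.12 (adjusted p = 0.074), each without overlap. Cycs, the mobile carrier, read 11.90, 11.57 and 11.87 against 11.47, 11.32, 11.18 and 11.36 (-0.45 ± 0.10, adjusted p = 0.076).

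Within complex IV the isoforms spread widely. Cox8b, the isoform of muscle and brown fat, read 10.01, 9.77 and 10.53 in controls and 8.88, 8.63, 8.70 and 7.64 in knockouts, a 3.11-fold lower signal that missed the threshold (-1.64 ± 0.32, adjusted p = 0.063). Its widely used counterpart Cox8a lay at -0.31 ± 0.12 with overlap (adjusted p = 0.22). Cox7a1, also typical of muscle and brown fat, read 10.46, 10.41 and 10.72 against 9.89, 9.62, 9.61 and 9.03 (-0.99 ± 0.20, adjusted p = 0.063). Its counterpart Cox7a2 lay at -0.39 ± 0.11 (adjusted p = 0.12). For both brown fat isoforms knockout 4 was the lowest array, and without it the values were -1.36 for Cox8b and -0.82 for Cox7a1.

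Cox6a2, the isoform of heart and skeletal muscle, stood on the other side. It read 6.72, 6.72 and 5.47 in controls and 8.07, 7.61, 7.54 and 7.37 in knockouts, 2.53-fold higher without overlap (1.34 ± 0.33, adjusted p = 0.088). The widely used Cox6a1 lay at -0.27 ± 0.09 (adjusted p = 0.15). Cox4i1 lay at -0.35 ± 0.10 (adjusted p = 0.13), and Cox4i2, an isoform known from lung and low oxygen, was 5.02, 4.92 and 5.0 against 5.08, 5.06, 5.06 and 5.17, a higher but very small difference (0.11 ± 0.06, adjusted p = 0.32).

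**Figure D3:**
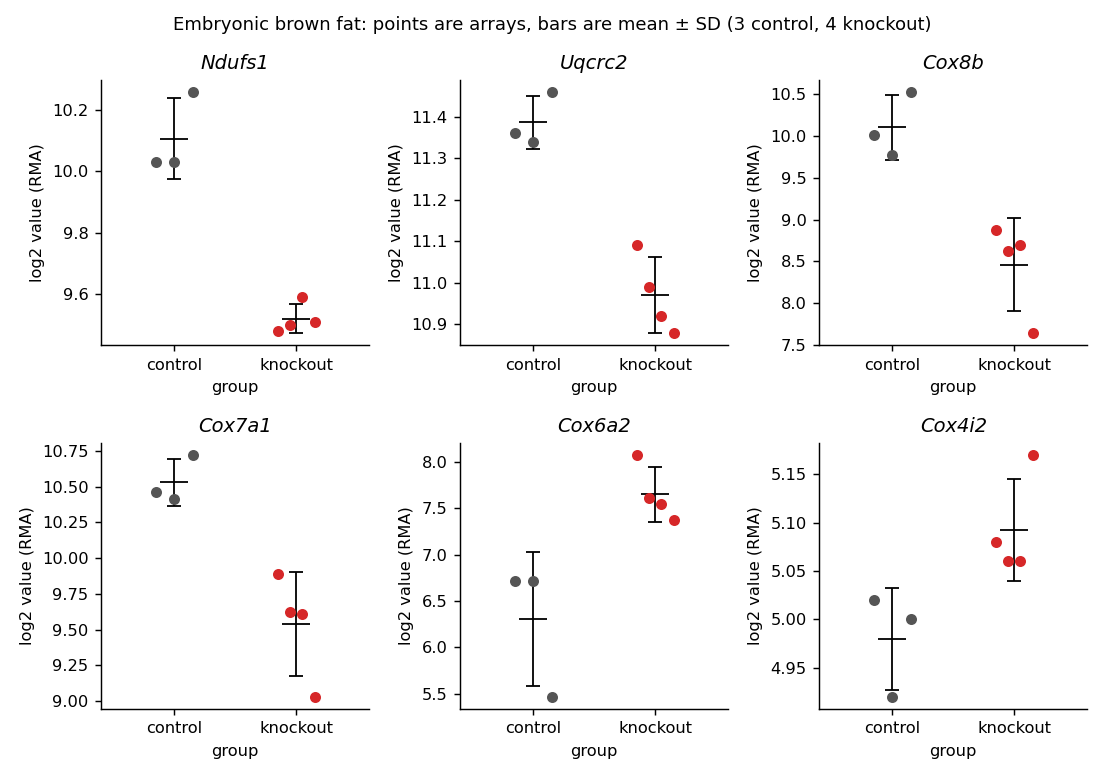
Log2 values of Ndufs1, Uqcrc2, Cox8b, Cox7a1, Cox6a2 and Cox4i2 in embryonic brown fat; points are arrays, and bars give the mean ± SD over 3 control and 4 knockout arrays. Knockout arrays lie below all controls for the first 4 genes and above all controls for Cox6a2 and Cox4i2, with control 3 the lowest for Cox6a2 at 5.47.

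In ATP synthase, the catalytic beta subunit Atp5b (-0.22 ± 0.09, adjusted p = 0.22) and the alpha subunit Atp5a1 (-0.25 ± 0.09, adjusted p = 0.17) lay a little lower, with overlapping arrays. The 3 genes for the proton-carrying c subunit, whose mature products are identical, were at 0.02 ± 0.15 (Atp5g1), -0.03 ± 0.07 (Atp5g2) and 0.17 ± 0.08 (Atp5g3), with overlap in each. The 95% interval of Atp5g2 ran from -0.20 to 0.13, so that it did not reach the complex I median. Atp5j2, a subunit of the membrane part, had the highest value of the enzyme (0.23 ± 0.12, adjusted p = 0.36).

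Markers of other cell types moved with the embryonic groups. The mean over 26 skeletal muscle genes was 6.16, 6.24 and 5.33 in controls and 6.85, 6.67, 6.61 and 6.61 in knockouts. Of these genes, 24 were positive, 20 without overlap (8.56% of all genes) and 0 called, with a median of 0.82. Cox6a2 was lowest in control 3, as was the muscle list, and without control 3 it lay at 0.92 ± 0.19 (adjusted p = 0.15). The muscle mean lay higher on every knockout array than on every control array. A fit with it as a covariate therefore cannot separate muscle level from genotype. In that fit Cox6a2 was at 0.16 ± 0.16. Under the same covariate the median of the 80 genes was -0.32, 73 were negative, 13 were lower at an unadjusted p under 0.05, where 1331 of all 22180 genes passed in either direction, and limma called 0 genes. The fibroblast list was positive on 11 of 11 genes, with means of 8.92, 8.70 and 8.49 against 9.32, 9.18, 9.21 and 9.31, and Col1a1 and Col3a1, the main fibrillar collagens, rose (0.60 ± 0.09 and 0.63 ± 0.10, adjusted p = 0.046 and 0.048).

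The 19 measured brown adipocyte genes had means of 8.18, 8.33 and 8.68 in controls against 7.56, 7.83, 7.76 and 7.48 in knockouts, with 18 negative and a median of -0.61. Ucp1 fell 8.79-fold (-3.14 ± 0.40, adjusted p = 0.044) and Dio2, the deiodinase that makes active thyroid hormone in the tissue, fell 3.16-fold (-1.66 ± 0.17, adjusted p = 0.036). Macrophage (5.55 to 5.80 against 5.74 to 6.06) and endothelial means (7.16 to 7.62 against 6.99 to 7.44) overlapped. The part of the fibroblast and brown adipocyte shares in the respiratory chain values was not tested. That of muscle cannot be told apart from genotype here.

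Other genes that build the chain lay lower with it in the embryo. Of 48 measured assembly factors, which insert cofactors and join subunits, 47 were negative, with a median of -0.44 and 0 called. Without overlap, 20 were lower, against 6.83% of all genes. At an unadjusted p under 0.05, 34 were lower and 0 higher, against 9.13% and 10.9% of all genes. Of 21 regulators of mitochondrial biogenesis, 15 were negative, with a median of -0.19, and 0 were called. At that unadjusted p, 8 were lower and 2 higher (9.13% and 10.9% of all genes). Ppargc1a, the coactivator best known for inducing mitochondria in brown fat, read 8.67, 8.85 and 8.90 against 8.25, 8.46, 8.56 and 7.99 (-0.49 ± 0.14, adjusted p = 0.12).

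The rows of the subunits encoded in mitochondrial DNA showed no such shift. The 10 measured ones had a median of -0.01 and a range of -0.10 to 0.01, 0 were called and 0 reached an unadjusted p under 0.05. Their mean was 12.37, 12.23 and 12.29 in controls against 12.28, 12.22, 12.32 and 12.27 in knockouts. Apart from ND6, which read 9.88 to 10.48, these rows read 12.11 to 12.95, near the table's highest value of 13.24. So near the top of the range a lower RNA level may not show, which limits any statement. ND6 was at 0.00 ± 0.13, with a 95% interval of -0.31 to 0.31.

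Adult brown fat with Adipoq-Cre had only 2 arrays a group, and no gene of the chain was called. The direction was mostly the same: 65 of 80 were negative (49.5% of all genes), with a median of -0.24 against 0 over all genes. Limma called 0 lower and 0 higher, where 0.0135% of all genes were called in each direction. At an unadjusted p under 0.05, 21 were lower and 1 higher, against 5.83% and 7.75% of all genes. On 50 genes both knockout arrays lay under both controls (20.1% of all genes), and on Cox6b2, Cox7a2 and Atp5mpl they lay above (21.8%).

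Complex II had the lowest median in the adult (-0.51, 4 of 4 lower without overlap), before complex III (-0.42, 7 of 8), complex I (-0.29, 24 of 33), complex IV (-0.20, 7 of 17) and ATP synthase (-0.08, 8 of 17). The share of all genes lower without overlap was 20.1%. Sdhb was the lowest gene, at 9.72 and 9.29 in controls against 8.65 and 8.44 in knockouts (-0.96 ± 0.20, adjusted p = 0.14). Its knockout signal was 1.94-fold lower. The membrane anchors and the flavoprotein were at -0.64 ± 0.13 (Sdhd), -0.38 ± 0.20 (Sdhc) and -0.33 ± 0.13 (Sdha).

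In complex III, Uqcrc1 read 10.66 and 10.43 against 9.91 and 9.40 (-0.89 ± 0.21, adjusted p = 0.18), and Cyc1 read 9.27 and 8.79 against 8.41 and 7.94 (-0.86 ± 0.24, adjusted p = 0.23). Uqcrc2, called in the embryo, was nearly level in the adult, at 11.23 and 11.19 against 11.16 and 11.16 (-0.05 ± 0.13, adjusted p = 0.94). Of complex I, the accessory subunit Ndufb11 was the lowest, at 4.46 and 4.20 against 3.34 and 3.60 (-0.86 ± 0.17, adjusted p = 0.13). Ndufs1 read 10.19 and 10.25 against 9.86 and 9.98 (-0.30 ± 0.13, adjusted p = 0.44), lower without overlap.

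In the adult, the complex IV isoforms of muscle and brown fat read as follows, and no test was made between isoforms. Cox8b read 11.42 and 11.29 against 11.05 and 11.06 (-0.30 ± 0.13, adjusted p = 0.43), beside -0.21 ± 0.19 for Cox8a. Cox7a1 read 10.65 and 10.43 against 10.44 and 10.25 (-0.20 ± 0.16, adjusted p = 0.70). Cox7a2 lay above its controls, at 9.87 and 9.67 against 10.00 and 10.23 (0.34 ± 0.16, adjusted p = 0.45), and so did Cox6b2, known as a testis isoform, at 4.76 and 4.56 against 5.15 and 5.35 (0.59 ± 0.15, adjusted p = 0.20). The muscle isoform Cox6a2 overlapped in the adult, at 3.31 and 4.06 against 3.19 and 3.53 (-0.32 ± 0.29), and Cox4i1 was at -0.37 ± 0.15 (adjusted p = 0.37). Atp5mpl, a small protein of ATP synthase, was at 0.22 ± 0.16. Atp5a1 and Atp5b were at -0.23 ± 0.13 and -0.08 ± 0.13, lower without overlap, and Atp5g1, Atp5g2 and Atp5g3 at 0.09, 0.00 and 0.10 with overlap.

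Other markers also moved with the adult groups. The macrophage list was positive on 9 of 9 genes, each without overlap (21.8% of all genes), with a median of 1.32. Its means were 5.43 and 5.26 in controls against 6.51 and 6.75 in knockouts. The fibroblast list was positive on 10 of 11 (means 6.82 and 6.63 against 7.40 and 7.22). The brown adipocyte list was negative on 17 of 19 (8.83 and 9.28 against 8.24 and 8.27), with Ucp1 at 12.09 and 12.50 against 10.90 and 11.75 (-0.97 ± 0.32, adjusted p = 0.29). The muscle list overlapped, at 3.31 and 3.97 against 3.26 and 3.62. None of these genes was called, and their part in the respiratory chain values was not tested.

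Assembly factors were more mixed in sign in the adult than in the embryo: 30 of 48 were negative, with a median of -0.19 and 0 called. Without overlap, 22 were lower and 10 higher, against 20.1% and 21.8% of all genes, so the higher ones were near that share. Regulators of biogenesis had a median of -0.33, with 16 of 21 negative and 0 called. The lowest were Ppara, at 7.93 and 7.36 in controls against 3.76 and 4.61 in knockouts (-3.46 ± 0.34, adjusted p = 0.055), and Ppargc1b. The latter read 7.73 and 7.01 against 4.21 and 4.51 (-3.01 ± 0.27, adjusted p = 0.052), and both missed the threshold. Ppargc1a was spread widely within both groups, at 7.63 and 10.04 against 7.62 and 8.81 (-0.62 ± 0.84, adjusted p = 0.85). Of the 10 mitochondrially encoded subunits, 9 were negative, with a median of -0.02, a range of -0.46 to 0.04 and 0 called. At an unadjusted p under 0.05, 1 was lower and 0 higher (5.83% and 7.75% of all genes). That one was ND6, at 10.41 and 10.37 in controls against 9.93 and 9.93 in knockouts (-0.46 ± 0.13, adjusted p = 0.22), named after its value was seen. The other mitochondrially encoded rows lay near the top of the range here too, which limits any statement on them.

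Across both tissues, 61 of the 80 genes were negative in each experiment, against 30.2% of all genes. On 40 genes the knockout arrays lay under all controls in both, against 3.07% of all genes. Embryonic and adult arrays share no control, but Cre line, control genotype and age differ between them, and they look normalized separately. These differences cannot be told apart.

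**Figure D4:**
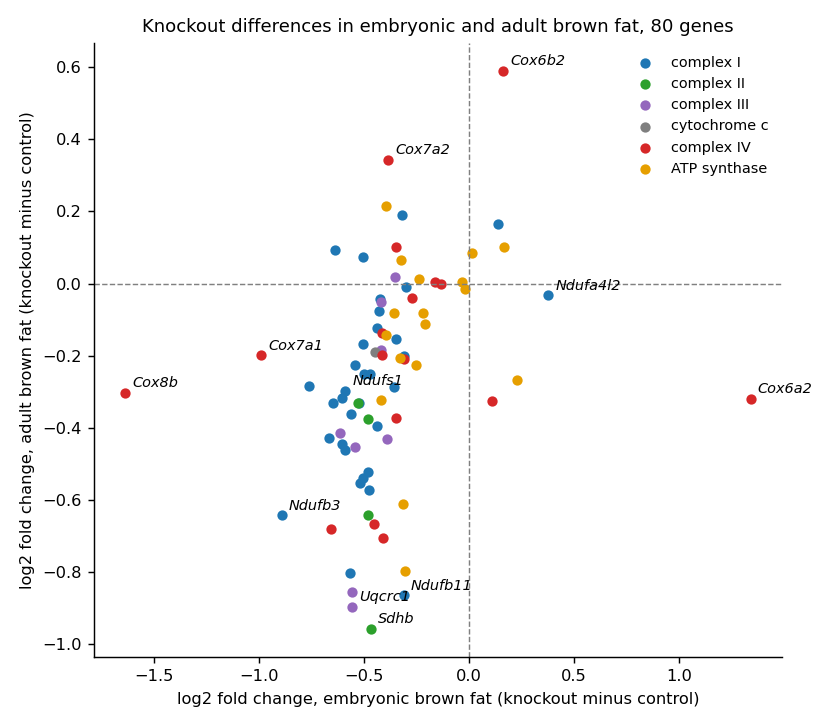
Log2 fold change (knockout minus control) in embryonic brown fat on the horizontal axis and in adult brown fat on the vertical axis, 1 point a gene, colored by complex. Of the 80 genes, 61 lie in the lower left; Cox8b (-1.64, -0.30) and Cox6a2 (1.34, -0.32) stand apart on the embryonic axis and Sdhb (-0.47, -0.96) on the adult axis.

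Whether the knockout effect differed between the tissues was tested in 1 fit of the 11 brown fat arrays. None of the 80 passed, where 0.703% of all genes were called lower and 1.28% higher in the adult, and at an unadjusted p under 0.05 there were 4 lower and 10 higher (7.46% and 8.82% of all genes). The median difference was 0.17, adult minus embryo. Cox6a2 had the lowest value (-1.66 ± 0.51, adjusted p = 0.13) and Cox8b the highest (1.34 ± 0.45, adjusted p = 0.17), followed by Cox7a1 (0.79 ± 0.29, adjusted p = 0.20) and Ndufa11 (0.73 ± 0.30, adjusted p = 0.25). Ndufb11 (-0.55 ± 0.19) and Atp5j2 (-0.50 ± 0.21) followed at the other end. Rows of Ndufa11 differed: the one used read -0.64 in the embryo and 0.09 in the adult, a dimmer one -0.38 and -0.16.

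Cox7a2 was the only member lower without overlap in the embryo and higher without overlap in the adult, 1 of 80 (1.25%) against 0.784% of all genes. Its embryonic values were 10.03, 9.97 and 10.09 against 9.94, 9.52, 9.57 and 9.55. The difference of 0.73 ± 0.19 missed the threshold (adjusted p = 0.086), and it passed without embryonic knockout 1 (0.83 ± 0.15, adjusted p = 0.037). Of the 48 measured assembly factors, the knockout effect was called higher in the adult for 3 and lower for 0 (1.28% and 0.703% of all genes). They were Cox19 (1.17 ± 0.16, adjusted p = 0.0061), a copper handling protein, Nubpl and Ndufaf7. Nubpl (0.90 ± 0.15, adjusted p = 0.019) delivers iron-sulfur clusters to complex I, and Ndufaf7 (0.66 ± 0.14, adjusted p = 0.043) is a methyltransferase for complex I. Of the 21 regulators, 3 were called lower and 0 higher. These were Ppargc1b (-2.36 ± 0.36, adjusted p = 0.013), Ppara (-2.17 ± 0.46, adjusted p = 0.042) and Gabpa (-0.64 ± 0.13, adjusted p = 0.040).

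Promoters of 65 of the 80 genes were matched by symbol in a RefSeq table (build GRCm38.p6). Each window is the 250 bases before the gene's start, on the gene's strand. They were searched on both strands for the core of the NRF1 site (GCATGCGC), the ETS site bound by GABP (CCGGAAG) and the estrogen-related receptor half-site (AAGGTCA), 3 factors known from respiratory genes. The NRF1 core was in 9 of the 65 (13.8%), against 2.56% of 27025 genes in the table. The ETS site was in 12 (18.5%), against 7.83%, and the receptor half-site in 3 (4.62%), against 4.7%. A match is a run of letters, not a site shown to be bound.

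A total of 5 windows show the widely expressed genes beside the brown fat isoforms, chosen after their values were seen: Cycs (chr6:50566570-50566819, minus strand) and Sdhb (chr4:140961021-140961270, plus strand) hold the NRF1 core, Sdhd (chr9:50603850-50604099, minus strand) holds the ETS site in reverse, and Cox7a1 (chr7:30183921-30184170, plus strand) and Cox8b (chr7:140900447-140900696, minus strand) hold none of the 3 motifs. Sequences run 5′ to 3′ in lower case, ending at the base before the start, with the matched motif in capitals.
Cycs: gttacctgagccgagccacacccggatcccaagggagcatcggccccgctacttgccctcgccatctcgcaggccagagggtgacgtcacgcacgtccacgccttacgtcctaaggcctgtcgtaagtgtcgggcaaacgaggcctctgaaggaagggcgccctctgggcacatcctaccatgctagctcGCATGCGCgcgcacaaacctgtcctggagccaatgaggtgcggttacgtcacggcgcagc
Sdhb: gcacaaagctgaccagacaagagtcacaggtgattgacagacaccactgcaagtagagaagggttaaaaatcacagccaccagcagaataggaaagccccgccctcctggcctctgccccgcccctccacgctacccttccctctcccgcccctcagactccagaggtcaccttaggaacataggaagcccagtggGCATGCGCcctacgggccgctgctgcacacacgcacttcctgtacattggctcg
Sdhd: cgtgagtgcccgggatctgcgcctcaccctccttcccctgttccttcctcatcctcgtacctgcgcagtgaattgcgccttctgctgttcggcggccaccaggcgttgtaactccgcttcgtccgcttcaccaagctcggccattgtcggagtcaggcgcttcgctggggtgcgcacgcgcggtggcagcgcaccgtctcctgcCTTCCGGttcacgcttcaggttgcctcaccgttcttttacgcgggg
Cox7a1: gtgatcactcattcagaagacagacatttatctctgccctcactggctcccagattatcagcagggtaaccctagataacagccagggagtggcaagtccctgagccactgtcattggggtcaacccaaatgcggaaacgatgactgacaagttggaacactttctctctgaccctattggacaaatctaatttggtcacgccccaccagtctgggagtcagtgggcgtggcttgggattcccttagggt
Cox8b: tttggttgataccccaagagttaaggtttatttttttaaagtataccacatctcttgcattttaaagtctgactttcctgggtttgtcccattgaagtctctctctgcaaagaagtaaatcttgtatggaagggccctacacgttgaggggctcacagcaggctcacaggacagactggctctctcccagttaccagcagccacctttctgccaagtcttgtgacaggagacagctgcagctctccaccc

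The first 3 genes lay at -0.45, -0.47 and -0.48 in the embryo, and the 2 isoform genes without a match at -0.99 and -1.64. In the adult Sdhb and Sdhd were at -0.96 and -0.64, and Cox7a1 and Cox8b at -0.20 and -0.30. The widely used counterparts Cox7a2 and Cox8a also held none of the motifs, as did most matched members. Lacking a match therefore does not set the brown fat isoforms apart. No relation between motifs and fold changes was tested.

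In 3T3-L1 cells the chain differed little between genotypes. Over 4 pairs of knockout and wild-type arrays, each pair with the same titled day and replicate, limma called 0 of the 80 genes (0.212% of all genes lower, 0.0766% higher). Their median was -0.06, with 62 negative (50.2% of all genes), and the values ran from -0.33 to 0.13. On 22 genes the knockout was lower in every pair and on 3 higher (10.8% and 11% of all genes), and 7 were lower and 0 higher at an unadjusted p under 0.05 (6.72% and 5.61% of all genes). The median was -0.06 or -0.07 for complexes I, II and IV and ATP synthase, and -0.10 for complex III.

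The lowest values in the cells were Ndufb11 (-0.33 ± 0.10, adjusted p = 0.25), the core iron-sulfur subunit Ndufs8 (-0.32 ± 0.08, adjusted p = 0.20) and Atp5j, coupling factor 6 of ATP synthase (-0.28 ± 0.08, adjusted p = 0.24). Ndufs8 read 8.56, 8.88, 8.20 and 8.59 in wild-type arrays (both day 0 replicates, then day 2) against 8.42, 8.55, 7.83 and 8.14 in their knockout partners, lower in every pair. The highest were Cox8c (0.13), Atp5b (0.11) and Ndufb5 (0.10). Cox8c read 3.29 to 3.88, around the lower quartiles of these arrays (3.49 to 3.56), where background limits any statement. Of the genes called in embryonic brown fat, Uqcrc2 read 8.86, 9.01, 8.99 and 9.27 against 8.81, 9.0, 8.79 and 9.01 (-0.13 ± 0.08, adjusted p = 0.55), lower in every pair. Ndufs1 read 7.57, 7.68, 7.65 and 7.67 against 7.74, 7.73, 7.61 and 7.63 (0.04 ± 0.08), with a 95% interval of -0.15 to 0.22 that does not reach its embryonic value of -0.59. The brown adipocyte list was negative on 14 of 19 genes (median -0.18) and the fibroblast list on 6 of 11 (median -0.02). In each list 1 gene was called lower over the pairs, Pdk4 (-1.33 ± 0.08) and Cd34 (-1.40 ± 0.08), against 0.212% of all genes. The part of these markers in the small shifts was not tested.

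By titled day the difference was -0.03 in the median on day 0 (50 of 80 negative, 48.3% of all genes) and -0.10 on day 2 (67 negative, 51.6%). Limma called 0 on either day, where on day 0 0.158% and on day 2 0.234% of all genes were called lower, with 0.0271% and 0.0316% higher. At an unadjusted p under 0.05, 0 were lower and 1 higher on day 0 (2.88% and 2.01% of all genes), and 2 lower and 0 higher on day 2 (4.45% and 3.71%). On day 0 the ends were Atp5j2 (-0.29), Ndufb11 (-0.28) and Ndufa2 (-0.27), and Cox8c (0.38, near the arrays' lower quartile), Atp5g1 (0.20) and Ndufs5 (0.18). On day 2 the lowest were Ndufs8 (-0.41), Cycs (-0.41 ± 0.19, adjusted p = 0.62) and Ndufc2 (-0.40), and the highest Ndufa7 (0.20), Ndufb10 (0.16) and Ndufb5 (0.15). The day 2 median rests on its arrays: it was 0.01 without wild-type replicate 2 and -0.22 without wild-type replicate 1. The brown adipocyte list was negative on 13 of 19 genes on day 2, with a median of -0.10. Of it, 4 were called lower: Pparg, Fabp4, Cidec and Pdk4 (-2.01, -2.03, -1.46 and -1.30). The fibroblast list was negative on 6 of 11, with a median of -0.01. Of it, 3 were called lower: Dcn, Lum and Cd34 (-1.96, -1.28 and -1.36). The share of all genes called lower was 0.234%. The part of these markers in the day 2 values was not tested.

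From day 0 to day 2, wild-type cells raised Cycs, the only member called (3.44% of all genes rose and 5.64% fell). It read 8.73 and 8.93 on day 0 and 9.57 and 9.92 on day 2, an increase of 0.92 ± 0.19 (adjusted p = 0.014). In knockout cells it read 8.72 and 9.08, then 9.17 and 9.50, higher without overlap but not called (0.44 ± 0.19, adjusted p = 0.27). In these cells 30 members were higher and 12 lower on day 2 without overlap, against 24.6% and 23.3% of all genes. In wild-type cells 32 were higher and 4 lower without overlap, against 26.6% and 22.2%. The call of Cycs was lost without wild-type day 0 replicate 1 or wild-type day 2 replicate 2, with adjusted p from 0.023 to 0.095 when arrays were left out in turn. Over all 80 genes the median was 0.17 in wild-type and 0.11 in knockout cells, with 14 and 24 negative, against 44.7% and 47.3% of all genes. In knockout cells 0 members were called, where 2.14% of all genes rose and 3.57% fell, and 6 were higher and 4 lower at an unadjusted p under 0.05 (7.62% and 9.69% of all genes). In wild-type cells 11 were higher and 1 lower by that measure (10.2% and 11.8%).

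Besides Cycs, the highest genes in wild-type cells were Cox7b (0.63 ± 0.26, adjusted p = 0.18), a small complex IV subunit, and Ndufb8 (0.52 ± 0.21, adjusted p = 0.18). In knockout cells Ndufa1 (0.42 ± 0.14) and Cox5a (0.36 ± 0.16) followed Cycs. Ndufa4l2 had the lowest value in both genotypes. It read 4.97 and 5.14, then 4.42 and 4.86 in wild-type cells (-0.42 ± 0.17, adjusted p = 0.18), and 5.09 and 5.19, then 4.37 and 4.58 in knockout cells (-0.67 ± 0.17, adjusted p = 0.052). Ndufs8 (-0.32 and -0.50) and Ndufb11 (-0.31 and -0.41) were next in both. Wild-type and knockout changes over the days were not tested against each other here.

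**Figure D5:**
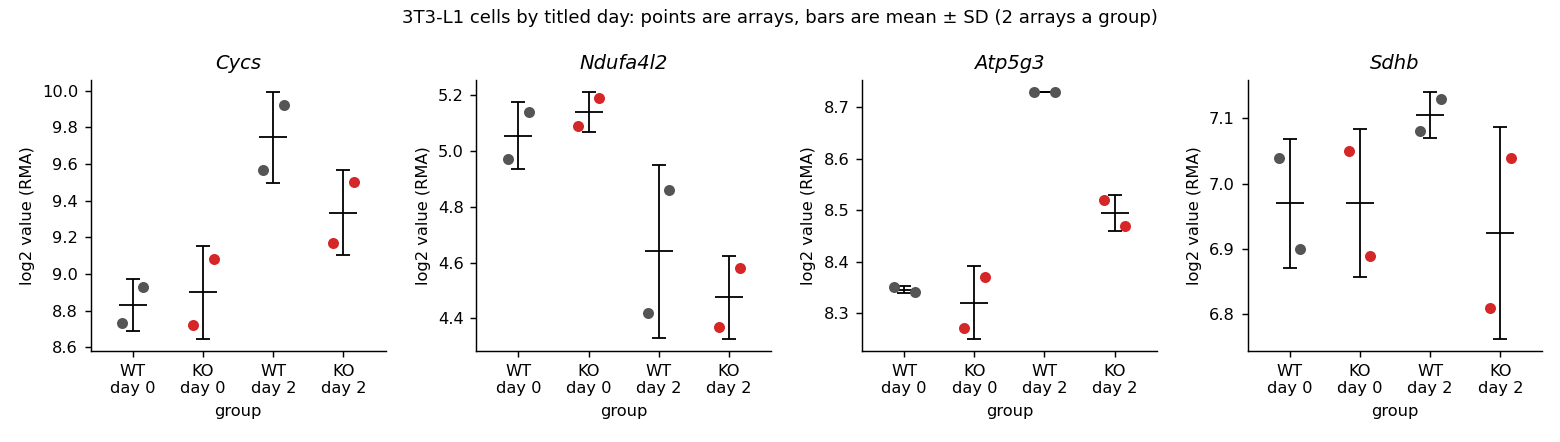
Log2 values of Cycs, Ndufa4l2, Atp5g3 and Sdhb in 3T3-L1 cells by genotype and titled day; points are arrays, and bars give the mean ± SD over 2 arrays. Cycs is higher on day 2 in both genotypes, Ndufa4l2 lower, and Sdhb lies between 6.81 and 7.13 throughout.

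Titles and source labels give different days for 4 of the 8 arrays of cells. With days from the source label Cycs was at 0.27 ± 0.40 in wild-type cells (adjusted p = 1), 0 members were called and the medians were 0.10 in wild-type and 0.04 in knockout cells. Limma then called 0 of 22180 genes over the days in either genotype, against 1250 lower and 762 higher in wild-type and 791 lower and 474 higher in knockout cells by the titled day. The partners of a pair share both labels, so the comparison of genotypes over pairs is the same with either.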

How the data were processed

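RNA of 19 samples was measured on Affymetrix mouse arrays after Trizol extraction and the GeneChip WT PLUS kit, per the labels' protocols. The authors deposited 1 table of log2 values, made with RMA and Transcriptome Analysis Console per the submitters' processing notes; the genome build is not given in the sources used here. Of 41345 rows, 23521 had 1 gene symbol, and each gene kept its row of highest mean level (22180 genes). The 80 members took 93 rows. Another 10 rows that held a member beside other symbols, and 2 pseudogene rows, were left out. For none of the 10 members with several rows did another row have the opposite sign in the embryo. In the adult the second row of Ndufa11 did (-0.16, against 0.09).

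Groups follow the sample titles. Tests used limma 3.58.1 in R 4.3.3 (lmFit, eBayes, two-sided), with Benjamini-Hochberg adjustment over all genes at 0.05; values after ± are SE of log2 fold changes unless SD is written. Residual degrees of freedom were 5 in the embryo and 2 in the adult. The labels do not say whether replicates came from different animals, litters or cultures; p-values therefore reflect only array-to-array spread, possibly technical, and the number of arrays limits precision. Cell pairs entered as a block: deviations of paired arrays correlated at 0.35 on day 0 and 0.30 on day 2. Adult arrays correlated at 0.33 by replicate number, but the main adult fit had no block. With a replicate block it called 0.627% of all genes, against 0.0271%, and 0 members. The fit was tested on simulated data. Members and lists were chosen with earlier results of these data known. Named are all called members, the 3 highest and 3 lowest per comparison, and fixed isoforms and core subunits; from other lists, genes called between genotypes, Med1, Ucp1 and Ppargc1a. Promoter sequences are RefSeq's, build GRCm38.p6. Alternatives: normalization, filters, rows, fits, blocks, left-out arrays.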

Additional observations from a re-analysis of the deposited data

Results flagged for a closer look

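Of 53 genes and means checked for an array far from the rest among the 4 embryonic knockout arrays, 3 genes had one; chance flags about 1 group in 20. Cox7a2 was higher in knockout 1 (9.94, the others 9.52 to 9.57), a gap of 0.866 of the group's range. Ndufa2 was also higher in knockout 1 (8.47, the others 8.12 to 8.15), with a gap of 0.938 of the range. Ndufv1 was lower in knockout 4 (8.68, the others 9.01 to 9.02), with a gap of 0.968 of the range.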

How the results depend on the processing

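In the embryo the direction of the median held under every setting run, while the calls of single members did not. Against 2 members called (1.16% of all genes in either direction), quantile normalization again gave 4 (1.39%), centring arrays on their medians 7 (1.74%), leaving out dim genes 39 (38 lower, 1 higher; 11.7%), trend and robust fitting 1 (0.969%), the fit of all 19 arrays 45 (44 lower, 1 higher; 6.88%), and the muscle covariate 0 (0%). The replicate block gave 0 (0%, median -0.38); replicate numbers do not pair the embryonic arrays (correlations 0.40, -0.06 and 0.08). Leaving out 1 array gave 0 to 0 calls and medians of -0.48 to -0.36. The mean of all rows kept 2 calls. In the adult, the fit of all 19 arrays called 12 (11 lower, 1 higher), where it called 9.24% of all genes against 0.0271%, and other settings called 0, with medians of -0.28 to -0.20 when arrays were left out. For the difference between tissues, the fit of all 19 arrays called 2 (3.49% of all genes, against 1.99%) and the others 0, with 0 to 1 when arrays were left out.

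For wild-type cells over the days, against 1 member called (9.07% of all genes), 2 were called without dim genes (21.5%), 3 with trend and robust fitting (10%), 2 in the fit of all 19 arrays (10.6%), 4 with the replicate block (11.5%), 0 by the source label (0%), and 0 to 2 with arrays left out, when the median ran from 0.04 to 0.22. For knockout cells over the days, against 0 called (5.7% of all genes), 1 was called (Ndufa4l2, lower) with trend and robust fitting (6.35%) or all 19 arrays (6.62%), and 2 with the replicate block (Ndufa4l2 and Ndufs8; 7.48%). Over the days the members' shares were below those of all genes under each of these settings but the source label, where both were 0. Their median was 0.04 by the source label and 0.06 to 0.15 with arrays left out. Comparisons of cell genotypes called 0 under every setting, no replicate block included; the day 2 median was -0.22 to 0.01 with arrays left out. The causes of these shifts were not tested. Of 1876 values of named genes under other settings, 1805 kept their side of the threshold, 48 passed it newly, 23 lost it and 0 reversed as called values. Cox7b2 lies under the lower quartile of all arrays, where signal over background limits any statement.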
